A study of Mus musculus with 2 samples.

Results

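The genes described here encode the protein subunits of the cytosolic ribosome in mouse bone marrow-derived macrophages, which are macrophages grown in culture from bone marrow of C57BL/6J mice. They were chosen by name: every gene whose symbol has the form of a ribosomal protein of the small subunit (Rps), the large subunit (Rpl), the stalk (Rplp) or Rpsa, with at least 1 protein-coding transcript, and without the S6 kinases or symbols marked as pseudogenes. The rule used no measured value. It found 86 of the 55536 genes in the tables, and 7 further symbols of the same form had no protein-coding transcript. Of the 86 members, 31 encode proteins of the small, or 40S, subunit and 43 encode proteins of the large, or 60S, subunit. Another 3 encode stalk proteins of the 60S subunit, 8 are paralogs of a subunit gene, and 1, Rps19bp1, encodes a protein that binds Rps19 and is not part of the ribosome.

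PolyA-selected RNA was sequenced from 2 biological replicates of 1 group. Per the labels' description, the agent was Lipid A, the part of bacterial lipopolysaccharide that anchors it in the membrane. The cells were exposed to 100 ng/ml for 12 h, rested without it for 12 h, and were then exposed to 100 ng/ml once more for 300 min. In another field the agent is called lipoprotein A, and which name is correct cannot be told from the labels. The libraries share 1 donor identifier, the age and sex of the mice were not collected, and no other condition was analysed here. The data therefore hold no contrast between treatments, no response was tested, and the spread between the libraries may be smaller than that between animals.

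A cytosolic ribosome carries a single copy of nearly every one of these proteins, and the cell destroys subunits that find no ribosome. Their mRNAs are short, are made in large amounts, and begin with a run of pyrimidines called a 5′ terminal oligopyrimidine (5′ TOP) tract, through which the kinase mTOR and the RNA-binding protein Larp1 set their translation. In macrophages, translation of this kind is adjusted on contact with bacterial products. The genes also have many processed copies in the mouse genome, some of them identical to the parent mRNA over long stretches.

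The regions around the start sites show the tract for the 2 most abundant 40S genes that had an entry in the RefSeq promoter table (GRCm38.p6), and the 60S genes chosen by the same rule are shown beside them. Each line runs 5′ to 3′ on the strand of the gene, the annotated start follows base 20, and capitals mark the longest run of C and T. The windows lie at chr14:24490658-24490697 (plus strand) for Rps24, chr3:90213629-90213668 (minus strand) for Rps27, chr10:128549149-128549188 (minus strand) for Rpl41 and chrX:74270796-74270835 (plus strand) for Rpl10.
Rps24: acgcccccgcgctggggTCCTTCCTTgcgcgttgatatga
Rps27: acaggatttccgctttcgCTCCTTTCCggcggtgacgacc
Rpl41: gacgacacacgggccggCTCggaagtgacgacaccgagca
Rpl10: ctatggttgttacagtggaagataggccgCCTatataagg
The runs in Rps24 and Rps27 are 9 bases long and cross the annotated start, and those in Rpl41 and Rpl10 are 3 bases long. Of 57 subunit genes with an entry, 28 (49.1%) held an unbroken run of 8 or more C or T within 20 bases of the start on the gene's own strand, against 18.4% of the 27025 genes of that table. By the GENCODE annotation, the most abundant transcript began with C followed by 4 or more pyrimidines in 12 of 77 subunit genes (15.6%) and in 2.35% of 9976 protein-coding genes at 1 TPM or more. An annotated start can lie some bases away from the start a cell uses, and these windows describe the annotation only. Rps29 and Rplp1 had no entry.

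The copies matter for many of the values below. A copy is here any other gene, outside the 86, that shares 30% or more of the 31-base stretches of the member's most abundant transcript. For Rps12 the copy Rps12-ps3 matched the Rps12 transcript over 494 of 494 bases, so no read from that stretch can tell them apart. For Rpl41 and Rpl35 the aligned stretches hold few differences, and single bases among them are shown because a read must cover one to tell the pair apart there. In each pair of lines the capital is the differing base, in a window of the transcript, 5′ to 3′, and positions count from 1 at the 5′ end of the member's transcript.
Rpl41 at C172T: agtaagccagccCgtgcacctacga
Gm10076: agtaagccagccTgtgcacctacga
Rpl41 at G279A: tagacctggaacGtcacctcgccgc
Gm10076: tagacctggaacAtcacctcgccgc
Rpl35 at C655T: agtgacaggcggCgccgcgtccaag
Gm2000: agtgacaggcggTgccgcgtccaag
Rpl41-203 and Gm10076-202, a lincRNA gene on chromosome 14, aligned over 381 bases with 2 mismatches and a gap of 2 bases, and both mismatches lie in the untranslated part of Rpl41. Rpl35-201 and Gm2000-201, annotated protein-coding on chromosome 1, aligned over 445 bases with 2 mismatches, of which C655T lies in the coding part and C509T in the untranslated part of Rpl35. These pairs were chosen after their values were seen.

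Ribosomal protein genes were among the abundant transcripts of these cells. TPM is a transcript level corrected for transcript length and scaled to a fixed total per library. The authors deposited 2 quantifications of the same reads, and levels are from the first, made through a transcriptome alignment, unless the second, made directly from the reads, is named. The 86 members summed to 55446 TPM in replicate 1 and 49384 TPM in replicate 2, or 5.55% and 4.94% of the TPM over genes. Their share of the expected counts, which are not corrected for length, was smaller, at 1.62% and 1.49%. The median length of the members was 715 nt, against 2447 nt over 9985 protein-coding genes at 1 TPM or more. The median member had 560 and 453 TPM in replicates 1 and 2, and the median of those 9985 genes was 16.2 TPM. In both libraries 66 of 86 members reached 300 TPM, a level reached by 4.88% of the expressed protein-coding genes on their mean. In such bulk RNA, fewer cells of a type and less RNA per cell cannot be told apart. All 8 macrophage markers were at 74.4 TPM or more in both libraries, and the summed markers of T and NK cells, B cells, erythroid cells and fibroblasts stayed at 1.00 TPM or less for each list. The 6 neutrophil markers summed to 61.9 TPM in replicate 1 and 4.39 TPM in replicate 2, with none at 10 TPM in both libraries.

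Most of the proteins are needed in equal numbers. Even so, the mRNA levels of the 77 subunit genes, taken without their copies, spanned 56.8-fold between the highest and the lowest mean. With copies added, the means ran from 199 to 3704 TPM. Without copies, as in the rest of this paragraph, most genes lay closer together. Within 2-fold of the median of 584 TPM stood 58 of the 77, and the 10th and 90th percentiles were 252 and 1158 TPM. The SD of log2(TPM + 1) over the subunit genes was 0.90. Levels of the 31 genes of the 40S subunit had a median of 639 TPM, where the library medians had a SD of 31.9 TPM, and the 46 genes of the 60S subunit with the stalk had a median of 488 TPM, where that SD was 40.7 TPM. The 40S levels ran from 318 to 3689 TPM and the 60S levels from 65.0 to 1436 TPM, and the ranges shared the span from 318 to 1436 TPM. The order of the genes was much alike in the libraries, with a Spearman rho of 0.957 and a Pearson r of 0.967 on log2(TPM + 1) across the 77 genes, which share their library and are not independent replicates. Shorter genes stood higher in TPM, with a rho of -0.56 between mean TPM and length across the same genes. TPM is itself divided by length, so length enters both sides of this rho. In replicate 1, for example, Rps27 of 346 nt had 1822 TPM from 6709 counts, and Rps9 of 750 nt had 1027 TPM from 18060 counts.

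**Figure D1:**
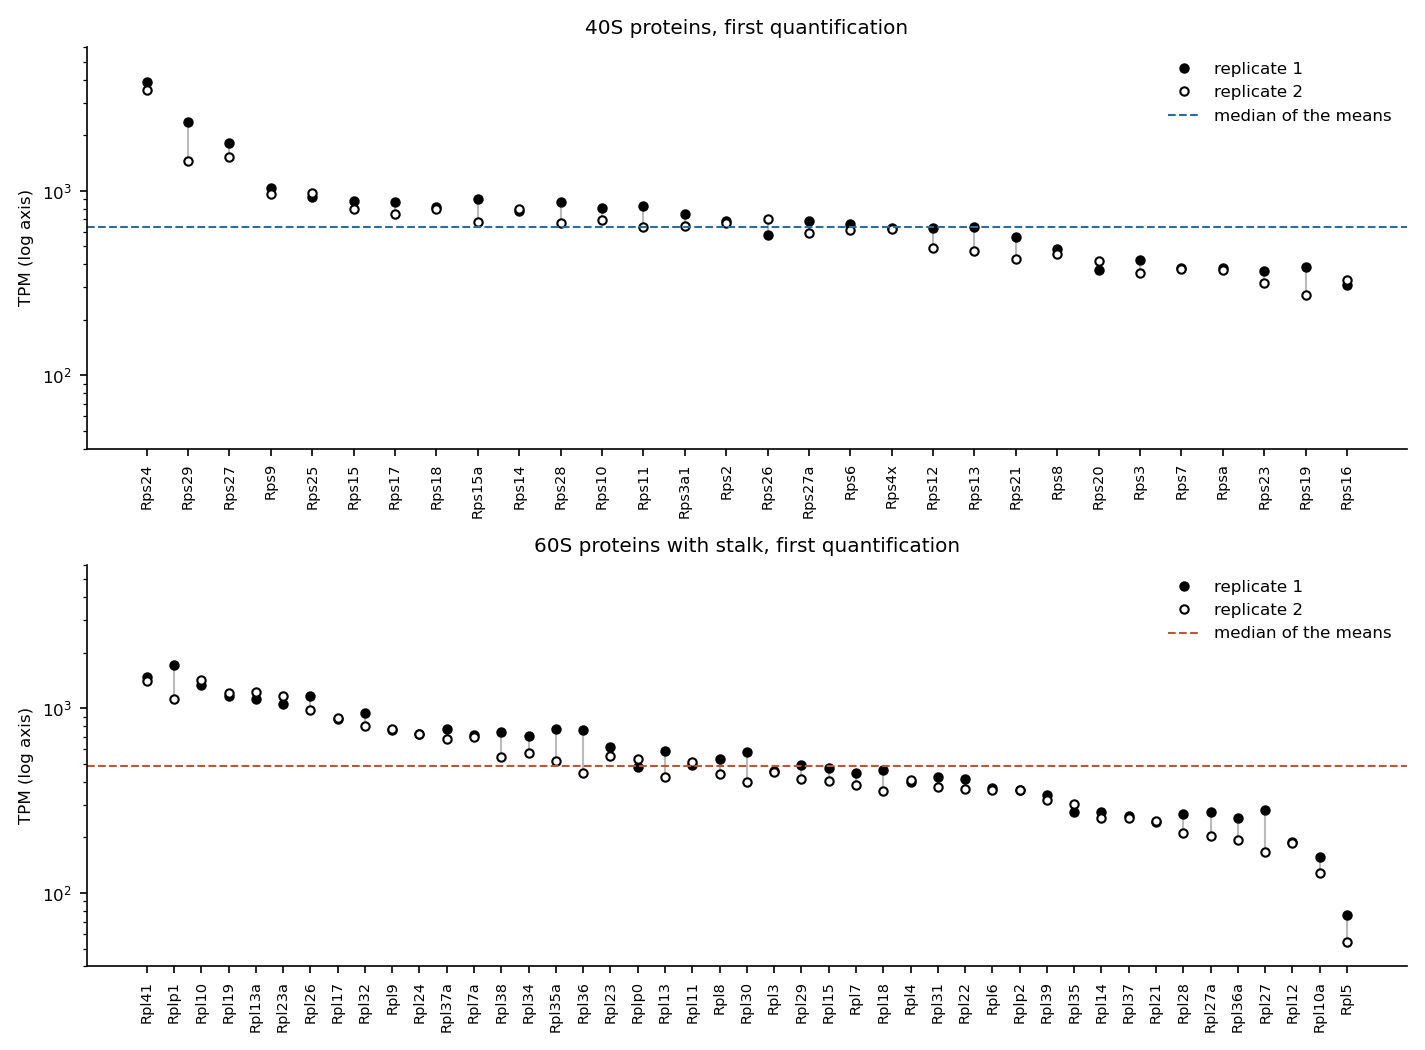
TPM of each subunit gene (log axis) in replicate 1 (filled points) and replicate 2 (open points) of the first quantification, ordered by mean, for genes of the 40S subunit and of the 60S subunit with the stalk; a few genes are not drawn. The dashed lines are the medians over all genes of each subunit, 639 and 488 TPM. Rps24 at the top and Rpl5 at the bottom, each without its copies, stand apart from their neighbours.

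Among 40S genes, Rps24 stood above all others. Rps24, a subunit gene known for its alternative splicing and for mutations in Diamond-Blackfan anaemia (chromosome 14, 24487125 to 24496959 on mm10), had levels of 3884 TPM in replicate 1 and 3494 TPM in replicate 2, a mean of 3689 ± 276 TPM (SD, n = 2). Rps29, a small zinc-binding protein of the subunit's head, was at 2354 and 1448 TPM, and the libraries lay further apart for it than for Rps24. Rps27, a zinc-finger protein (chromosome 3, 90212522 to 90213651), was at 1822 and 1518 TPM. After these 3 the levels dropped: both libraries of Rps9, a protein of the decoding side, were lower than either library of Rps27, at 1027 and 961 TPM. Rps25, which internal ribosome entry sites of several viruses need, was at 947 ± 36.6 TPM, and Rps15 was at 840 ± 57.7 TPM. Rps9 and Rps25 overlapped, and Rps15 was lower than both in each library.

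At the low end of the 40S genes, the values lay within a narrow range. Rps16 was at 308 and 328 TPM, and at a mean of 379 TPM with its copies. Rps19, the gene most often mutated in Diamond-Blackfan anaemia, was at 386 and 271 TPM, and Rps23, a protein of the decoding centre, at 368 and 315 TPM, so the libraries of these 3 genes overlapped. Rps23 stood low only without its copies: Rps23-ps1, a processed pseudogene on chromosome 3, was at 659 and 405 TPM, and Rps23 with its copies came to a mean of 874 TPM. In the second quantification Rps23 was at 245 and 184 TPM and Rps23-ps1 at 728 and 567 TPM. Rpsa, the subunit protein also known as the laminin receptor precursor, stood at 375 ± 6.58 TPM. Rps7 stood at 378 ± 1.65 TPM, and Rps3, which forms part of the mRNA entry channel, at 389 ± 45.7 TPM, again without a gap to its neighbours. Rps6, the protein that S6 kinase phosphorylates, was near the middle at 658 and 615 TPM, and Rps27a, which is made as a fusion to ubiquitin, was there too at 685 and 591 TPM.

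In the 60S subunit, 7 genes reached 1000 TPM in both libraries. Rpl41, the smallest protein of the ribosome (chromosome 10, 128548114 to 128549305), was at 1470 and 1401 TPM. Rplp1, an acidic protein of the stalk that binds elongation factors, was at 1716 and 1118 TPM, on both sides of Rpl41. Rpl10, a late-joining protein near the peptidyl transferase centre (chromosome X, 74270812 to 74273135), was at 1345 and 1431 TPM, so these 3 cannot be ranked beyond their spread in this quantification. In the second, Rpl41 was at 1385 and 1423 TPM, above Rplp1 at 1339 and 934 TPM and Rpl10 at 760 and 933 TPM in both libraries. With its copies added, Rpl41 came to 2620 and 2685 TPM in the first. Rpl19 was at 1192 ± 27.1 TPM. Rpl13a, which interferon gamma is known to release from the ribosome of myeloid cells to silence inflammatory mRNAs, was at 1176 ± 64.5 TPM. The other stalk genes were lower than Rplp1 in both libraries: Rplp0, the stalk's base, was at 508 ± 33.8 TPM and Rplp2, the partner of Rplp1, at 362 ± 0.410 TPM.

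Several of the lowest 60S genes had an abundant copy elsewhere in the genome. Rpl5, which carries 5S ribosomal RNA with Rpl11 and can bind the p53 regulator Mdm2 (chromosome 5, 107900502 to 107909005), was lowest at 75.9 and 54.1 TPM, whereas its partner Rpl11 was at 503 ± 14.96 TPM. This gap holds only without copies: with their copies added, Rpl5 came to 469 TPM and Rpl11 to 527 TPM on the mean. Rpl10a was at 157 and 129 TPM, and Rpl12, a protein at the base of the stalk (chromosome 2, 32961559 to 32965345), at 188 and 186 TPM. In this quantification and without copies, the libraries of these genes did not overlap with those of Rpl5. In the second, Rpl12 at 10.3 and 5.60 TPM overlapped with Rpl5 at 12.9 and 8.93 TPM. With copies added in the first, the order was reversed, with means of 199 TPM for Rpl10a, 329 TPM for Rpl12 and 469 TPM for Rpl5. Rpl27 at 224 ± 80.1 TPM, Rpl36a at 225 ± 44.3 TPM and Rpl27a at 239 ± 49.5 TPM overlapped with each other. Of the 10 lowest subunit genes, 7 had a copy at 100 TPM or more in either quantification, against 9 of the other 67. This count was made after the values were seen. Reads shared by a gene and its copy are split between them, so a lower gene and a higher copy can come from the same split. The count therefore cannot show a link between the levels of the genes and of their copies. With each gene's copies added to it, the lowest subunit gene stood at 199 TPM, 65 of 77 genes lay within 2-fold of a median of 636 TPM, and the SD of log2(TPM + 1) was 0.77.

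Of the paralogs, 3 were near 0, and 4 stood well below their parent gene but above 9 TPM. Rpl10l, known from the testis, had no count in either library, which allows up to 3 counts, or 0.0594 and 0.0647 CPM (counts scaled to the library total), while its parent Rpl10 was among the highest members. Rpl3l, known from heart and skeletal muscle, had 0 and 3 counts, against 460 and 451 TPM for Rpl3. Rpl39l, another paralog known from the testis, was at 2.05 and 1.33 TPM with 38 and 24 counts, or 0.506% ± 0.129 of the summed TPM of the pair, while its parent Rpl39, a protein of the exit tunnel, was at 330 ± 15.5 TPM. Rps27l, a p53 target, was at 227 and 212 TPM and made up 11.7% ± 0.857 of the pair with Rps27. Rpl22l1 was at 97.5 TPM in each library, 20.0% ± 1.29 of the pair with Rpl22, a protein whose loss is known to affect lymphocytes. Rpl7l1, a relative of Rpl7 with a part in making the 60S subunit, was at 57.2 and 74.4 TPM, or 13.8% ± 3.49 of its pair.

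Rpl36al was the paralog that exceeded its parent, at 371 and 318 TPM against 256 and 193 TPM for Rpl36a, or 60.7% ± 2.14 of the pair. With its copies added, Rpl36a came to 466 TPM and Rpl36al to 346 TPM on the mean, so this order holds only for the annotated parent alone. Rps27rt, a copy of Rps27 that itself counts among the 86, was at 10.03 and 9.25 TPM from 45 and 39 counts, and its most abundant transcript and that of Rps27 matched over 341 bases without a mismatch. In the second quantification it was listed at 0 and at 5.28 TPM. Rps19bp1, which encodes the Rps19-binding protein also called active regulator of SIRT1, was at 27.6 and 28.1 TPM.

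For several members the quantifications split the counts differently between the gene and its copies. Members that reached 1 TPM in at least 1 quantification numbered 84. Of these, 82 were lower in the second quantification, as were 56.6% of 12268 genes. The median log2 ratio of second over first was -0.26 for the members alone and -0.25 with their copies added, against -0.02 over all genes that reached 1 TPM in either. By 2-fold or more, 6 members were lower in the second, as were 2.93% of the 12268 genes and 0.491% of the 10179 protein-coding genes compared. None was higher there by 2-fold or more, as 10.2% of the 12268 genes were. Rps12 (chromosome 10, 23785183 to 23787275), a 40S protein, went from 555 ± 96.4 TPM to 18.7 and 20.5 TPM. Its copy Rps12-ps3 on chromosome 19, annotated protein-coding, went the other way, from 10.7 and 7.04 TPM to 664 and 490 TPM. In counts, Rps12 held 7308 and 4927 in the first and 345 and 292 in the second. Rps12 with all its copies held 7597 and 5103 counts in the first and 7828 and 5254 in the second, so the sum differed little beside the shift of Rps12 itself. Counts compared here and below are not scaled. Their totals over genes were 50503160 and 46342327 in the first and larger in the second, at 55475857 and 50416393.

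Rpl12 showed the same exchange. It was at 188 and 186 TPM in the first quantification and 10.3 and 5.604 TPM in the second, while Gm10275, a transcribed processed pseudogene on chromosome 10 with 634 aligned bases and no mismatch, went from a mean of 142 TPM to one of 492 TPM. Rpl5 was at 12.9 and 8.93 TPM in the second. Gm15500, a transcribed processed pseudogene on chromosome 7 that matched Rpl5-202 over 598 bases without a mismatch, exceeded its parent in both, at 404 and 435 TPM on the mean. Rpl10a was at 143 and 70.4 TPM on the mean in the first and second, and its copy Rpl10a-ps1 at 56.2 and 111 TPM. Rpl10 did not pass the 2-fold line but went from 22248 to 15676 counts in replicate 1, while Rpl10-ps3 went from 1057 to 8529.

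Rps15a differed in TPM with hardly a difference in unscaled counts. It held 9269 and 5806 counts in the first quantification and 9467 and 5977 in the second, yet its mean TPM was 788 in the first and 386 in the second. In the first, 72.9% and 66.4% of its TPM sat on Rps15a-203, an annotated transcript of 250 nt, and in the second 44.1% and 33.3%. Rps28 was at 769 and 635 TPM on the mean, but its copy Gm10443 went from 793 TPM to 56.3 TPM. That copy is 210 nt long, with an effective length of 17.8 nt in replicate 1, so 484 counts there gave 748 TPM whereas 4204 counts of Rps28 gave 869 TPM. A further case was Rpl41, whose mean TPM was near equal, at 1436 and 1404, while its counts went from 11538 and 10426 in the first to 19205 and 17989 in the second. Gm10076, a copy of it, went from a mean of 1217 TPM to one of 2.33 TPM, and from 5515 counts to 5 in replicate 1.

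Members differed in how much of their sequence is their own. Rps3, with 91.3% of its 31-base stretches found in no other gene, was at 389 and 356 TPM in the first and second on the mean, and Rpl8 with 90.01% at 489 and 429 TPM. The members highest in the second relative to the first were Rpl39l at a log2 ratio of 0.08 and Rpl21 at 0.07, followed by Rpl7l1 at -0.01, Rpl41 at -0.03 and Rpl7 at -0.04. Rpl10 had 3.56% and Rps27 1.27% of its 31-base stretches found in no other gene. The median own share over the 77 subunit genes was 35.4%, 56 of the 77 were under 50%, and 68 had at least 1 copy. Altogether 71 members had 339 distinct copies, of which 37 reached 10 TPM in either quantification and 311 are annotated as processed pseudogenes. The copies summed to 6091 and 6026 TPM in the first and 5211 and 5074 TPM in the second. The posterior SD that the first quantification reports was small even where the tables disagreed: it was 0.434% of the count for Rps12 in replicate 1 and 2.60% for Rpl10a, the highest among subunit genes in that library. Summed with their copies, 3 members were 2-fold or more apart: Rps15a, Rps27rt and Rps28, the last of which had been within 2-fold alone.

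**Figure D2:**
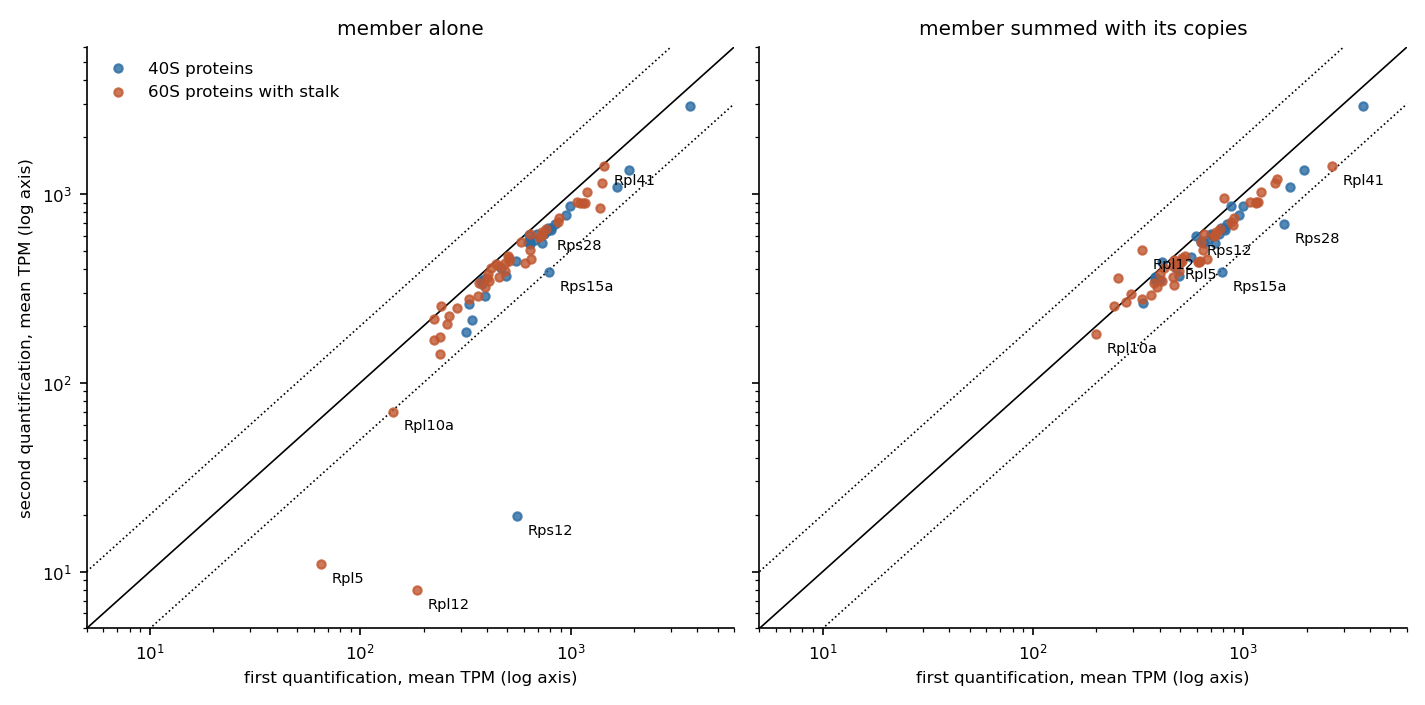
Mean TPM of the 77 subunit genes in the second against the first quantification (log axes), for each gene alone (left) and summed with its copies (right); the solid line is equality and the dotted lines are 2-fold. Rps12, Rpl12 and Rpl5 lie far below the line alone, at 19.6, 7.95 and 10.9 TPM in the second, and within 2-fold of it with their copies, while Rps28 and Rps15a lie below the 2-fold line on the right.

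Between the libraries, most members were lower in replicate 2. Ratios were taken from expected counts scaled with TMM factors, for the 84 members that had enough reads, and intervals cover counting error only. As log2 of replicate 2 over replicate 1, the median was -0.14 for the members and 0.00 for all 12543 genes compared. Of the 84 members, 67 were higher in replicate 1, as were 6266 of the 12543 genes (50%), and 17 members were higher in replicate 2. The 95% counting interval lay below 0 for 57 members and for 29.5% of all genes, and above 0 for 13 members and for 28.4% of all genes. The 40S genes had a median of -0.14 and the 60S genes with the stalk one of -0.16. The shift was small: 5 members were 1.5-fold or more higher in replicate 1, where 6.94% of all genes were, and no member was 1.5-fold or more higher in replicate 2, where 6.23% were. The difference between 2 libraries has no replicate check.

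The 5 members furthest toward replicate 1 were Rpl36, Rpl27, Rpl30, Rps29 and Rplp1. Rpl36 had 3663 and 2013 counts, or 764 and 449 TPM, and a log2 ratio of -0.75 (95% counting interval -0.83 to -0.67). Rpl27 followed at -0.73 with 3588 and 2002 counts. Its place depends on how reads were split with its copies: with them it held 6135 and 3840 counts. With copies added to each member, 4 members rather than 5 were 1.5-fold or more apart. Rpl30, a protein that also binds its own transcript, was at -0.69 with 9523 and 5427 counts. Rps29 stood at -0.68 with 11806 and 6785 counts, and Rplp1 at -0.60 with 14794 and 8995. Just outside the 1.5-fold line were Rplp2 at -0.58 and Rps15a at -0.56. Rplp2 shows how a level and a count can part: its counts were 5426 and 3349, but its TPM was 363 and 362, while Rplp2-203, of 421 nt, held 50.4% of it in replicate 1 and 75.1% in replicate 2, and Rplp2-201, of 964 nt, held 46.0% and 20.2%.

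Rps26, a protein beside the mRNA exit site, was among the members furthest toward replicate 2, at a log2 ratio of 0.29 with 575 and 703 TPM. Rpl7l1 was at 0.20, Rpl23a, a protein at the tunnel exit, at 0.15 and Rplp0 at 0.13.

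Gene length moved with this difference. The 42 compared members under 700 nt had a median log2 ratio of -0.22, with 35 higher in replicate 1 and all 5 of the 1.5-fold changes, and the 42 members of 700 nt or more had one of -0.09, with 32 higher in replicate 1. Of the protein-coding genes outside the 86, the 246 under 700 nt had a median of -0.19, with 172 higher in replicate 1 and 12.2% of them 1.5-fold or more higher there. The 10842 longer ones had a median of 0.01, with 5310 higher in replicate 1 and 5.22% of them 1.5-fold or more higher there. The rho between the log2 ratio and length was 0.34 across the 77 subunit genes. The median gap between length and effective length of genes over 2000 nt, which reflects the mean fragment, was 267 nt in replicate 1 and 261 nt in replicate 2. Neutrophil marker RNA, as given above, was also higher in replicate 1. Their part in the result was not tested.

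**Figure D3:**
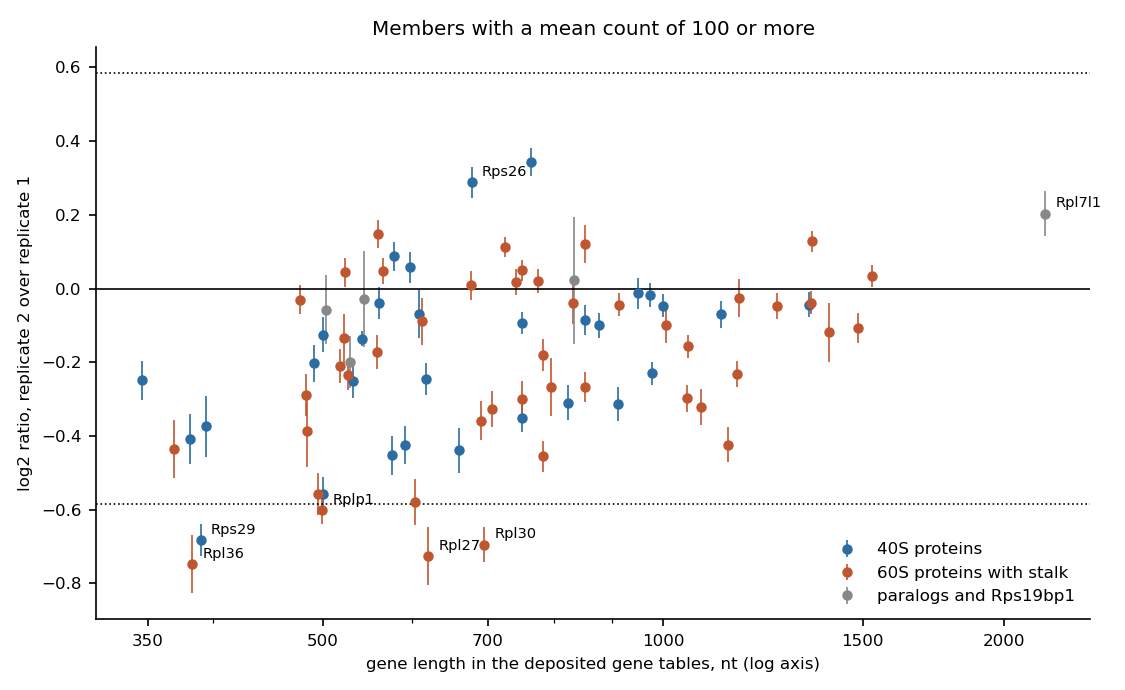
Log2 ratio of replicate 2 over replicate 1 for each member with a mean count of 100 or more, against gene length in nt (log axis); bars are 95% intervals of counting error and dotted lines mark 1.5-fold. Rpl36, Rpl27, Rpl30, Rps29 and Rplp1 lie below the lower line, all under 700 nt, and Rps26 lies above 0 at 0.29.

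In most members 1 annotated transcript was assigned nearly all of the TPM, but a group divided its signal or was led by a transcript not annotated as coding. In 52 of 84 members the leading transcript held 90% or more of the gene's TPM in both libraries, and in 78 of 83 the same transcript led both quantifications. The same counts were not made over all genes, so they describe the members only. Transcripts annotated protein-coding held 95.6% and 95.2% of the members' TPM. Rps24-201, of 468 nt, held 90.4% and 92.2% of Rps24, and Rps24-210, of 1613 nt, held 5.69% and 6.08%.

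Among the lowest leading shares were those of Rps19, Rps3, Rpl31, Rpl5 and Rpl13a. Rps19 was divided in a different way in each library, with Rps19-202 at 14.96% and 58.2% and Rps19-203 at 43.5% and 26.5%. Rps3-205, of 489 nt, held 44.7% and 35.5%, beside 33.6% and 40.2% for Rps3-201, so their order differed between the libraries. Rpl31-205 held 44.1% and 41.8%. Rpl5-201, the coding transcript of Rpl5, held 32.9% and 58.2%, and transcripts annotated as retained introns held 65.6% and 39.3%; among the latter is Rpl5-202, which matches Gm15500.

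For Rpl13a, transcripts annotated for nonsense-mediated decay, the pathway that removes mRNAs with an early stop codon, held a sizeable part. They came to 34.8% and 31.3% of it, and the coding leader Rpl13a-214 held 50.03% and 50.8%. Rpsa was led by such a transcript: Rpsa-206, of 1101 nt, held 69.4% and 67.5% in the first quantification and 75.5% and 75.8% in the second, and the coding Rpsa-201, of 1938 nt, held 29.6% and 30.5% in the first. Retained-intron annotations led Rps16, where Rps16-203 held 62.3% and 82.3%, and Rps20, where Rps20-201 held 88.8% and 94.4%. Both genes have a processed pseudogene as a copy, and Rps16-203 matched Rps16-ps2 over 395 bases without a mismatch. From the first to the second quantification, mean TPM went from 318 to 186 for Rps16 and from 61.8 to 178 for Rps16-ps2. It went from 393 to 288 for Rps20 and from 17.9 to 150 for its copy Gm4332. The coding transcripts Rps16-201 and Rps20-203 are annotated at 1109 and 3706 nt, and held 14.5% and 10.6%, and 10.7% and 4.81%. Short reads assign such transcripts by the few stretches that differ, and the annotated type is not evidence of the RNA's fate in these cells.

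**Figure D4:**
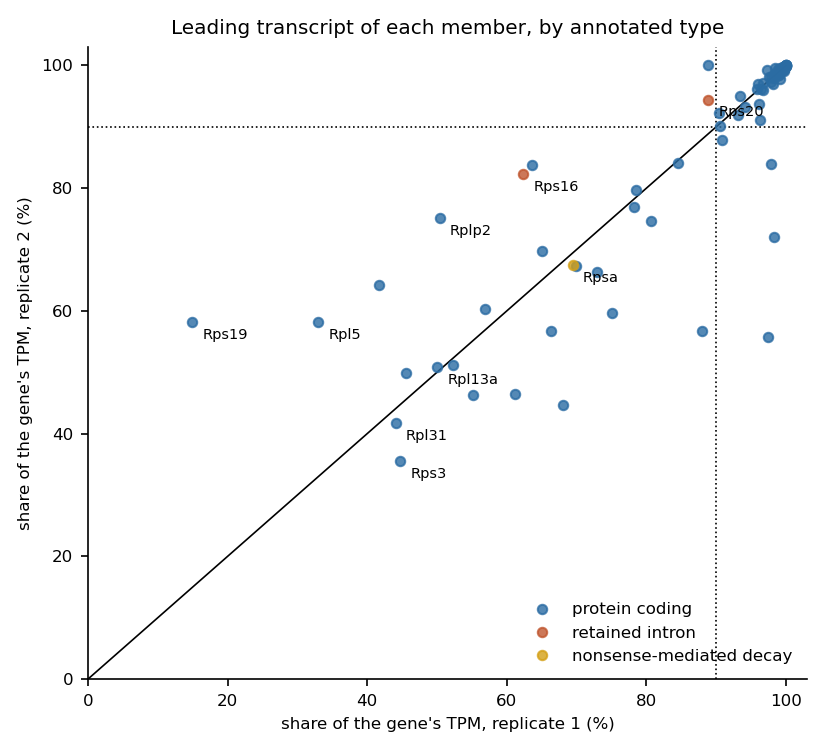
Share of each gene's TPM held by its leading transcript in replicate 2 against replicate 1 (percent), coloured by the transcript's annotated type, with dotted lines at 90%. Most of the 84 members sit above 90% in both libraries, Rps16 and Rps20 are led by retained-intron annotations and Rpsa by one for nonsense-mediated decay.

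In the genome the members are scattered over 19 chromosomes, with 14 on chromosome 7. They share a feature the rule did not use: 30 of the 77 subunit genes (39.0%) hold an annotated small nucleolar RNA gene within their bounds on the same strand, 58 such genes in all, against 1.96% of the 9985 expressed protein-coding genes. Small nucleolar RNAs guide the chemical modification of ribosomal RNA and are released from introns of their host.

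Outside the naming rule lie other genes of the same machinery. Fau, a fusion of a ubiquitin-like protein and Rps30, was at 683 and 596 TPM, and Rack1, a scaffold on the 40S head, at 304 and 256 TPM. The list of 19 translation factors and other genes with 5′ TOP mRNAs, all at 10 TPM or more in both libraries, had a median of 193 ± 4.79 TPM (SD of the library medians). It was led by the elongation factor Eef1a1 at 2975 and 2926 TPM and by Tpt1, the translationally controlled tumour protein, at 1616 and 2235 TPM, and ended in Eif2s3x at 75.8 ± 4.91 TPM and Eif3l at 57.2 ± 4.62 TPM. Their median log2 ratio between the libraries was 0.01, with 8 of 19 higher in replicate 1 and none 1.5-fold apart.

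Other parts of the pathway were lower. The 78 mitochondrial ribosomal protein genes, which encode the separate ribosome of the organelle, had a median of 31.7 ± 0.7495 TPM, with 74 at 10 TPM or more in both libraries. Mrps21 at 185 TPM and Mrps18c at 143 TPM were highest, and Mrps28 at 10.4 TPM and Mrps35 at 9.44 TPM lowest. Of the 36 ribosome biogenesis genes listed, 35 were found under the symbol used, with a median of 19.7 ± 0.0849 TPM, from Sbds at 184 TPM and the nucleolin gene Ncl at 94.6 TPM to Rrp12 at 3.27 TPM and Polr1b, a subunit of RNA polymerase I, at 2.81 TPM. The 18 regulators of TOP mRNA translation had a median of 15.7 ± 0.721 TPM. Cnbp, which binds 5′ TOP mRNAs, was highest at 124 TPM, followed by the cap-binding factor Eif4e at 114 TPM, and Mlst8, a subunit of the mTOR complexes, at 7.39 TPM and Eef2k at 5.97 TPM were lowest.

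**Figure D5:**
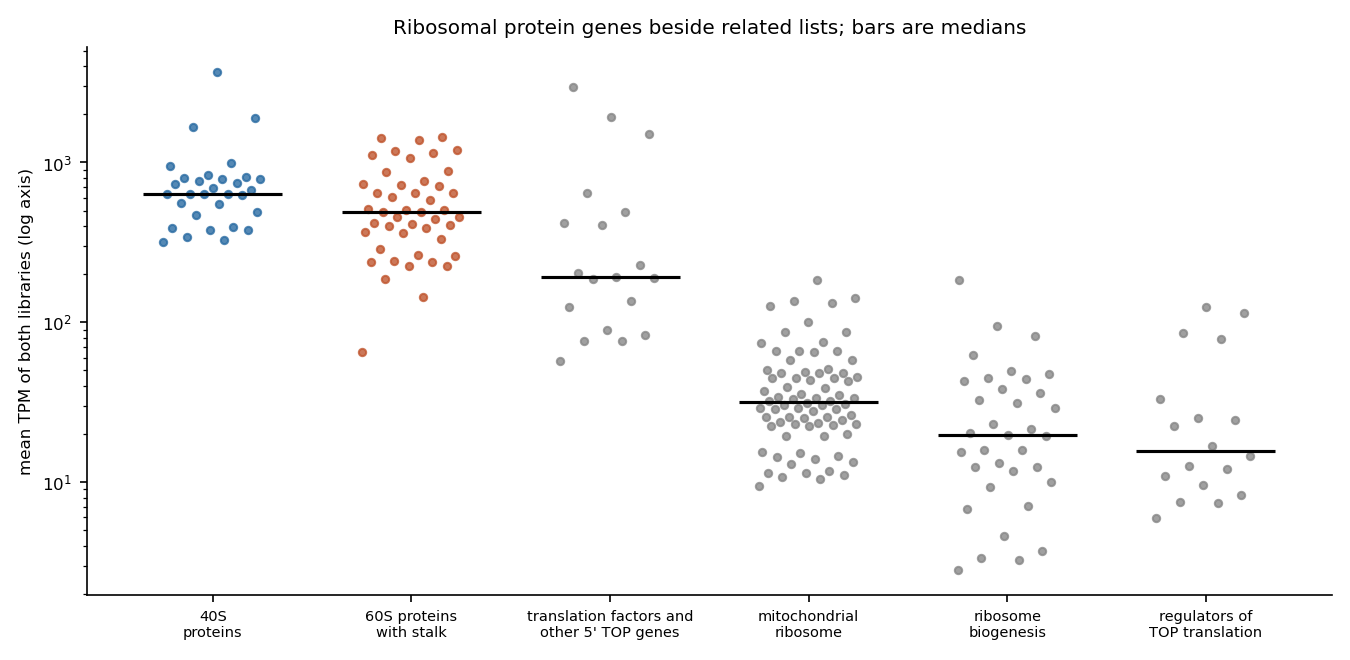
Mean TPM of both libraries (log axis) for the 40S genes, the 60S genes with the stalk and the related lists; each point is a gene and bars are medians. The 40S and 60S medians of 639 and 488 TPM stand above those of 193 TPM for translation factors and other TOP genes, 31.7 TPM for the mitochondrial ribosome, 19.7 TPM for ribosome biogenesis and 15.7 TPM for the regulators.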

How the data were processed

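The authors deposited, per the file headers, a gene table and a transcript table of expected counts and TPM for each library, here the first quantification, and a transcript table of estimated counts and TPM, here the second. Per the deposited README, both use mm10 and GENCODE M21, and they come from a transcriptome alignment and directly from the reads. Names of tools were not given in the sources used here. Nor was strand handling. Deposited lengths and posterior SDs of counts were used as given, per the file headers.

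Members, lists and named genes were chosen with earlier results of these data known. Named by rule were the 6 highest and 6 lowest genes of each subunit, all paralogs, Rps19bp1, the 5 members furthest apart each way between libraries and between quantifications, and the 6 lowest leading shares. Expected counts, 50503160 and 46342327 after rounding over genes, were scaled with TMM in edgeR 4.0.16 (R 4.3.3) after filterByExpr, with a prior count of 0.5. Intervals are exact conditional binomial ones at 95%, and they and the limit of 3 counts cover counting error only. Quantifications were compared on log2(TPM + 0.1). Shared 31-base stretches were counted on GENCODE transcripts in Python 3.11.15, with pairs aligned in Biopython 1.88. Alternatives were DESeq2 1.42.0 size factors, other filters, pseudocounts and prior counts, the second quantification and each library alone. The ratio script was tested on simulated data. RefSeq entries matched 66 of 86 members. No protein sequence was used here. A few genes that these rules name are not reported here.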

Additional observations from a re-analysis of the deposited data

How the results depend on the processing

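The sums with copies were chosen after seeing the data, and the other alternatives were planned. Of 46 alternative values, 38 stayed within the spread between libraries, or the counting error for the ratio, or within 1.5 times for counts, and 8 moved. With only 2 libraries, leaving 1 out could not move the summed share past the spread between them. It hardly could for the median level, so those values among the 38 are no check. In the second quantification the median level was 426 TPM against 505 TPM, the summed share 4.20% against 5.24% of TPM, and the spread of log2 levels of the subunit genes 1.31 against 0.90. The summed share was 1.56% as a share of counts and 5.85% with copies. The spread was 0.77 with copies, and with each library left out in turn it ranged from 0.895 to 0.922. With copies, 3 members were 2-fold or more apart between the quantifications against 6. The median log2 ratio between libraries ranged from -0.15 to -0.12, and the number of members 1.5-fold apart from 4 to 6. Neither can be given with a library left out, since both need 2 libraries. No paired analysis was possible because there is 1 group. Depth limits only Rpl3l, Rpl10l, Rpl39l and Rps27rt, with under 50 counts each, and sequence shared with copies limits the members named above.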

Other observations

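The 300 genes with symbols of the same form marked as pseudogenes, left out by the naming rule, summed to 2112 and 1927 TPM in the first quantification and 2891 and 2593 TPM in the second. Among the mitochondrial ribosomal protein genes, Mrpl52, chosen after its values were seen, was at 181 and 83.2 TPM in replicates 1 and 2, a log2 ratio of -1.09, further apart than any of the cytosolic members compared. Of the 78 genes of that list, 51 were higher in replicate 1 and 3 were 1.5-fold or more higher there, with a median log2 ratio of -0.09. The 35 ribosome biogenesis genes had a median of 0.06, with 12 higher in replicate 1 and none 1.5-fold or more apart.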
